A study of Mus musculus with 8 samples.

Results

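The interleukin 1 (IL-1) axis was followed as 10 genes in the pancreas of 8 mice. They were taken by symbol from a table of 15047 genes, and every one of the 10 had a row: the ligand genes Il1a, Il1b, Il18 and Il33, the antagonist gene Il1rn, the receptor genes Il1r1, Il1r2 and Il1rap, and the inflammasome genes Nlrp3 and Casp1. All mice were male. 3 were C57BL/6 WT on a low-fat diet (LFD), 3 were C57BL/6 WT on a high-fat diet (HFD), in which fat gave 60% of calories, and 2 were leptin-deficient ob/ob mice (C57BL/6J; ob/ob), which the study's methods place on standard chow. Feeding began at 4 weeks of age, and the LFD and HFD diets were given for 10 weeks, by which time HFD mice had become obese. The labels name no transplant, but by the study's methods all 8 mice carried pancreatic grafts of mT organoids. The study's sequencing methods do not give the time from transplant to tissue collection. These organoids come from pancreatic tumors of mice with a Cre driven by the Pdx1 promoter, which acts in the pancreatic lineage. The host keeps its own pancreas, and the share of graft in each library was not measured. HFD is the study's model of diet-induced obesity and ob/ob its model of genetic obesity, and the comparisons ask how gene expression in the grafted pancreas differed between lean and obese hosts. The ob/ob mice differed from LFD mice in genotype and in chow, whose parts cannot be told apart.

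IL-1α and IL-1β are cytokines that start local inflammation. IL-1β and IL-18 are made as inactive precursors and are cut by caspase-1 once an inflammasome, such as the one built on the sensor NLRP3, has formed. IL-1α and IL-33 are alarmins, which act when a damaged cell releases them. IL-1 signals through IL-1R1 and its partner chain IL-1RAcP, the product of Il1rap. IL-1Ra, the product of Il1rn, blocks that receptor, and IL-1R2 is a decoy that binds IL-1 without signaling. Activation of precursors and release of alarmins take place in the protein, and none of it was measured here.

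Values are rlog values, read counts moved to a log2 scale with the differences of weakly counted genes drawn toward 0. A difference of 1 is a doubling before that shrinkage. The values are not scaled to gene length, so levels were compared between mice and not between genes. Acinar marker genes were high in every library, which is what the pancreas label calls for. Their mean rlog value (31 of 33 listed genes found) was 16.99 to 17.52 in LFD mice, 13.32 to 17.35 in HFD mice and 13.65 to 16.62 in ob/ob mice. HFD replicate 3 and ob/ob replicate 2 held the low ends. In whole-tissue RNA, fewer cells of a type and less RNA per cell cannot be told apart.

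Some of the member genes lie close together in the mouse genome (GRCm38, Gencode M21). Il1a (chromosome 2, 129299610 to 129309972, minus strand) and Il1b (chromosome 2, 129364570 to 129371139, minus strand) are neighbors with no coding gene between them, and Il1rn (chromosome 2, 24336853 to 24351494, plus strand) lies far from them on the same chromosome, between Il1f10 and Psd4. Il1r2 (40074079 to 40125231) and Il1r1 (40225080 to 40317257) open a run of 6 receptor genes on the plus strand of chromosome 1 that goes on with Il1rl2, Il1rl1, Il18r1 and Il18rap and spans 477627 bases. The other members stand apart from each other: Il18 (50554827 to 50581840) and Casp1 (5298517 to 5307265) on the plus strand of chromosome 9, Nlrp3 on chromosome 11 (59541568 to 59566956, plus strand), Il1rap on chromosome 16 (26581704 to 26730117, plus strand) and Il33 on chromosome 19 (29925114 to 29960718, plus strand).

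The promoters of Il1a, Il1b and Il1rn are shown because these genes of chromosome 2 had their highest values in the same pair of mice, HFD replicates 2 and 3, and that of Nlrp3 because it encodes the inflammasome sensor. Each line gives the 150 bases that end just before the first listed RefSeq start of the gene (GRCm38.p6), 5′ to 3′ on the gene's strand. Capitals mark matches to the AP-1 letters TGANTCA, to the PU.1 letters GAGGAAG and to the TATA box letters TATAAA, on either strand.
Il1a (chr2:129309973-129310122): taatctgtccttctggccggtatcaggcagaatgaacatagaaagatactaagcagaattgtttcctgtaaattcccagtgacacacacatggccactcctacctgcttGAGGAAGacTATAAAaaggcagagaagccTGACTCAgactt
Il1b (chr2:129371140-129371289): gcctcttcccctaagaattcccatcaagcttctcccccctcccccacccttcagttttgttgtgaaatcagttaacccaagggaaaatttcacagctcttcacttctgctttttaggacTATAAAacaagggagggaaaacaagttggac
Il1rn (chr2:24336710-24336859): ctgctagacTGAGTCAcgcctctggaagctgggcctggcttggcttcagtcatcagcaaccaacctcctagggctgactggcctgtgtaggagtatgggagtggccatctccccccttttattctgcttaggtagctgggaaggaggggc
Nlrp3 (chr11:59542536-59542685): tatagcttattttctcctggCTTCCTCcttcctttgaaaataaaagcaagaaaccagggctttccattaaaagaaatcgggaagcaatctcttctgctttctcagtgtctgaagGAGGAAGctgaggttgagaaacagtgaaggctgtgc

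Il1a carries all 3 motifs in a short stretch, with GAGGAAG at positions -41 to -35 counted from the start, TATAAA at -32 to -27 and the AP-1 letters at -12 to -6. Il1b shares the TATA box letters at nearly the same place, -31 to -26. In Il1rn the AP-1 letters lie farther out, at -141 to -135, and Nlrp3 holds GAGGAAG at -130 to -124 on the minus strand and at -36 to -30 on the plus strand. Over all starts of the members (300-base windows, 250 before and 50 after each start), AP-1 letters were found in 2 of 10 members, PU.1 letters in 3, TATAAA in 5, the C/EBP letters TTNNGCAA in 2 (Il33 and Il1r1) and an NF-kB consensus in 2 (Il1r1 and Nlrp3, each at its second listed start). Of 32851 mouse promoter windows of the same length, 7.81% held the AP-1 letters, 13.6% the PU.1 letters, 13.6% TATAAA, 10.8% the C/EBP letters and 4.51% the NF-kB consensus. A member with several listed starts was searched more than once, so its chance of a match is not that of 1 window. These matches are descriptions of letters, not of binding.

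In HFD mice, 9 of 10 members had a higher mean rlog value than in LFD mice, led by Il1rn, Il1a, Il1b and Il1r2, and Il1rap had about the same mean. In ob/ob mice all 10 means were above LFD, with smaller estimates than in HFD for the ligands Il1a and Il1b, the antagonist Il1rn and the decoy Il1r2. No member passed the test in any comparison. The test (limma across all 15047 genes, called at an adjusted p under 0.05) called 0 genes of any kind, 0% of the table, in HFD against LFD, in ob/ob against LFD, in ob/ob against HFD and in both obese groups together, weighted equally, against LFD. The smallest adjusted p of any gene in those comparisons was 0.0864, 0.1346, 0.8827 and 0.05978. The values below are therefore differences that the replicate spread did not let the test call. The study's own test, made on counts, did report genes at an adjusted p under 0.05. It cannot be repeated on rlog values.

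**Figure D1:**
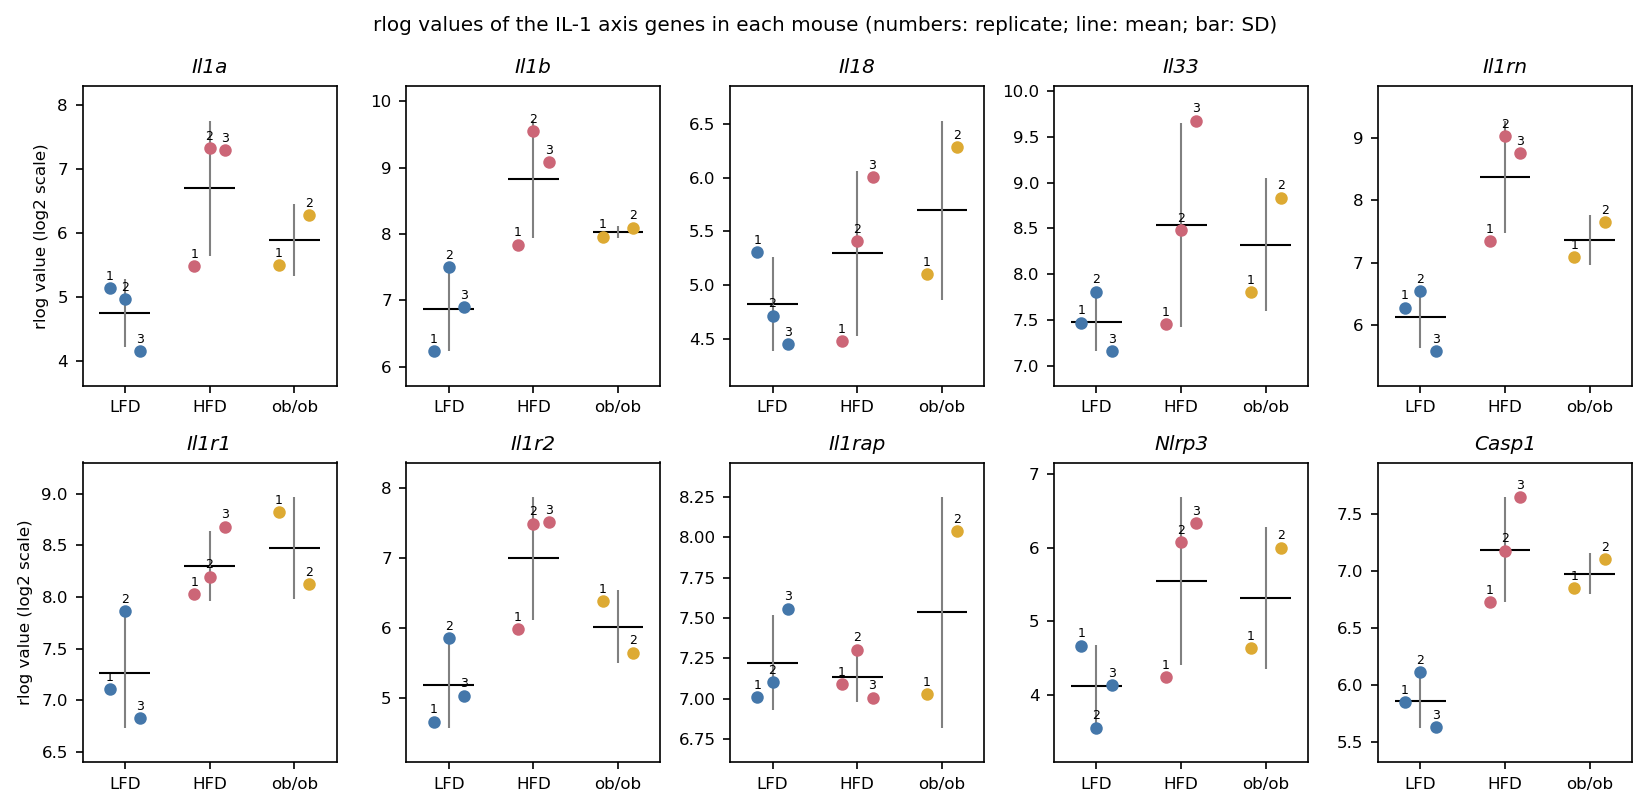
rlog values (log2 scale, vertical axis, a separate range in each panel) of the 10 IL-1 axis genes in LFD, HFD and ob/ob mice, with 1 point a mouse numbered by replicate, a line at the group mean and a bar of 1 SD to each side. HFD replicate 1 sits lowest of the HFD mice in 9 of the 10 panels, and Il1rap is the panel in which HFD and LFD means are closest.

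Among the ligands, Il1b (ENSMUSG00000027398), the secreted form made mainly by myeloid cells, was at rlog values of 6.23, 7.50 and 6.89 in LFD replicates 1 to 3, at 7.84, 9.55 and 9.09 in HFD replicates 1 to 3 and at 7.96 and 8.10 in the ob/ob mice. All 5 obese mice lay above every LFD mouse, and HFD replicate 1 and both ob/ob mice lay close together, well under the other HFD mice. The mean difference from LFD was 1.95 in HFD (SE 0.46, adjusted p = 0.1763) and 1.15 in ob/ob mice (SE 0.51, adjusted p = 0.2667).

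Il1a, the alarmin form, was at 5.14, 4.96 and 4.15 in LFD mice, at 5.48, 7.33 and 7.29 in HFD mice and at 5.50 and 6.28 in ob/ob mice. Again no obese mouse overlapped the LFD range, though HFD replicate 1 and ob/ob replicate 1 cleared it by little. Its mean was higher by 1.95 in HFD (SE 0.53, adjusted p = 0.1799) and by 1.14 in ob/ob mice (SE 0.60, adjusted p = 0.318).

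Il18, whose product is the other cytokine cut by caspase-1, was at 5.31, 4.71 and 4.44 in LFD mice, 4.48, 5.41 and 6.01 in HFD mice and 5.10 and 6.29 in ob/ob mice, so that both obese groups overlapped the LFD range. The differences from LFD were 0.48 in HFD (95% confidence interval -0.60 to 1.56) and 0.87 in ob/ob mice (-0.33 to 2.08). Its mean was highest in ob/ob mice and those of Il1a and Il1b in HFD mice, but the ob/ob and HFD values overlapped.

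Il33, an alarmin stored in the nuclei of stromal and barrier cells, was at 7.47, 7.81 and 7.16 in LFD mice, 7.46, 8.48 and 9.68 in HFD mice and 7.81 and 8.84 in ob/ob mice. HFD replicate 1 lay inside the LFD range, while HFD replicate 3 was the highest of all mice. The differences from LFD were 1.06 in HFD (interval -0.13 to 2.24) and 0.84 in ob/ob mice (interval -0.48 to 2.17).

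The antagonist gene Il1rn had the largest difference of the 10 members in HFD against LFD. It was at 6.28, 6.54 and 5.58 in LFD mice, 7.34, 9.03 and 8.75 in HFD mice and 7.08 and 7.65 in ob/ob mice, and the lowest obese mouse stood above the highest LFD mouse. The HFD difference was 2.24 (SE 0.45, 4.73-fold on the rlog scale, adjusted p = 0.1747), above 99.8% of all genes' differences. In ob/ob mice it was 1.23 (SE 0.51, adjusted p = 0.2518).

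The receptors did not share one pattern. Il1r1, the signaling receptor, was at 7.11, 7.86 and 6.83 in LFD mice, 8.03, 8.20 and 8.68 in HFD mice and 8.82 and 8.12 in ob/ob mice. The obese mice were all above the LFD mice, and the ob/ob and HFD ranges overlapped. Its difference from LFD was of like size in both groups, 1.04 in HFD (SE 0.32, adjusted p = 0.1914) and 1.21 in ob/ob mice (SE 0.36, adjusted p = 0.2005).

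Il1r2, the decoy, was at 4.66, 5.85 and 5.03 in LFD mice, 5.98, 7.49 and 7.50 in HFD mice and 6.38 and 5.65 in ob/ob mice. All HFD mice were above the LFD mice, HFD replicate 1 by a narrow margin, while ob/ob replicate 2 fell inside the LFD range. The difference was 1.81 in HFD (SE 0.49, adjusted p = 0.1799) and 0.83 in ob/ob mice (interval -0.41 to 2.08).

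Il1rap, the shared accessory chain, which also serves the IL-33 and IL-36 receptors, was at 7.01, 7.10 and 7.56 in LFD mice, 7.09, 7.30 and 7.01 in HFD mice and 7.03 and 8.04 in ob/ob mice. Apart from ob/ob replicate 2, no obese mouse left the LFD range upward. The HFD difference of -0.09 had an interval of -0.75 to 0.57, which leaves room for a change of either sign smaller than those estimated for Il1rn, Il1a or Il1b. The ob/ob difference was 0.31 (interval -0.43 to 1.05).

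Casp1, which encodes the protease of the inflammasome, was at 5.85, 6.11 and 5.63 in LFD mice, 6.73, 7.18 and 7.65 in HFD mice and 6.85 and 7.10 in ob/ob mice. Every obese mouse was above every LFD mouse, and both ob/ob mice lay within the HFD range. Its difference was 1.32 in HFD (SE 0.28, adjusted p = 0.1747) and 1.12 in ob/ob mice (SE 0.31, adjusted p = 0.196), and for both obese groups together it was 1.22 (SE 0.25) with the smallest adjusted p of any member, 0.09176.

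Nlrp3, the sensor, was at 4.67, 3.56 and 4.13 in LFD mice, 4.24, 6.07 and 6.33 in HFD mice and 4.64 and 6.00 in ob/ob mice. The mice fell far apart within each obese group, with HFD replicate 1 and ob/ob replicate 1 inside the LFD range and the other 3 well above it. The difference was 1.43 in HFD (SE 0.61, adjusted p = 0.2458) and 1.20 in ob/ob mice (SE 0.68, adjusted p = 0.3447). At these low values the rlog shrinkage is strong.

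**Figure D2:**
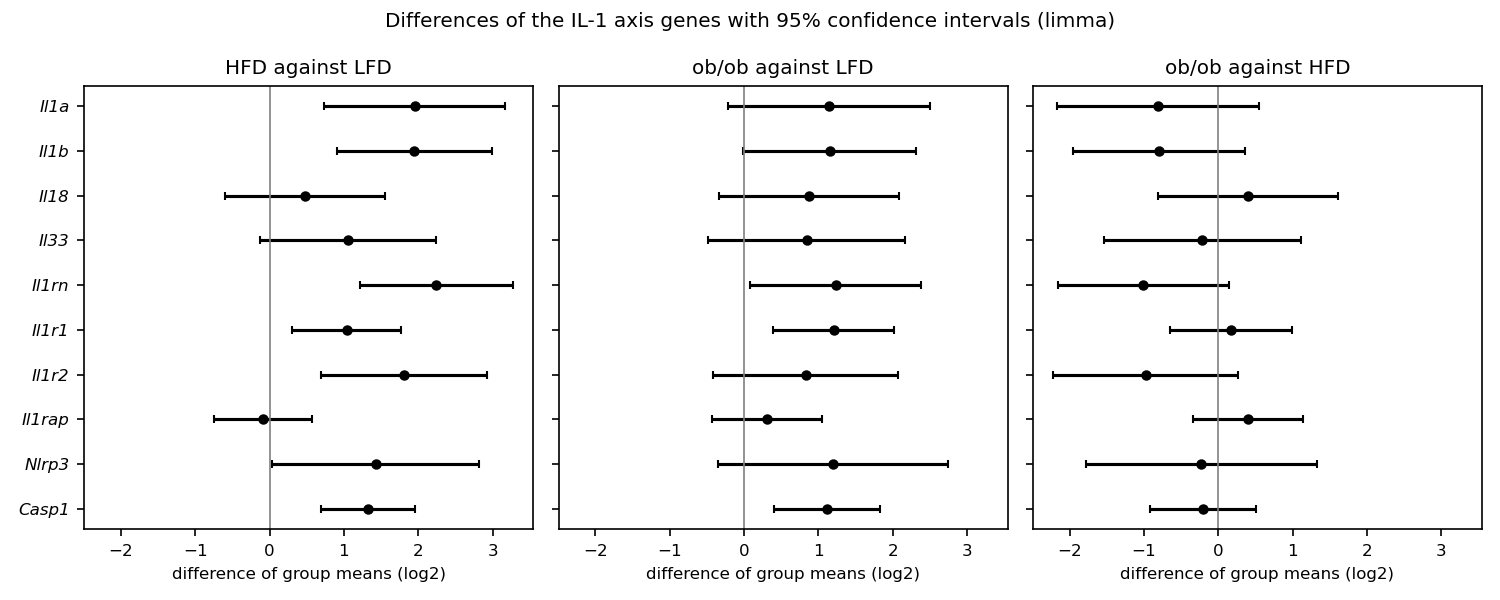
Difference of group means (horizontal axis, log2) of each IL-1 axis gene in HFD against LFD, ob/ob against LFD and ob/ob against HFD, with points at the estimate and bars for the 95% confidence interval of the limma fit before any adjustment. In HFD against LFD 7 intervals lie above 0, in ob/ob against LFD 3 do, and in ob/ob against HFD each one crosses 0.

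Counted without adjustment, 7 of the 10 members (Il1a, Il1b, Il1rn, Il1r1, Il1r2, Nlrp3 and Casp1) were higher at an unadjusted limma p under 0.05 in HFD against LFD, where 11.5% of all genes were. In ob/ob against LFD 3 were (Il1rn, Il1r1 and Casp1), beside 11.6% of all genes, and for both obese groups together the same 7 as in HFD were, beside 14.5%. The count of members whose groups did not overlap, with the obese group higher, was 6 in HFD against LFD (12.9% of all genes), 5 in ob/ob against LFD (24.1%) and 5 when all 5 obese mice were set against LFD (9.4%). The median difference of the 10 members was 1.38 in HFD and 1.13 in ob/ob mice, while the median of all genes was 0.03 and 0.04. These comparisons share the 3 LFD mice, so a low value in those mice enters each of them.

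HFD and ob/ob mice were not told apart by any member. The ob/ob mean was lower for 7 members and higher for Il18, Il1r1 and Il1rap. The largest differences were those of Il1rn, at -1.01 (interval -2.16 to 0.14), Il1r2, at -0.98 (-2.22 to 0.27), Il1a, at -0.81 (-2.17 to 0.54), and Il1b, at -0.79 (-1.96 to 0.37), and all 10 members had an adjusted p of 0.9996. No member had an unadjusted p under 0.05 (3.91% of all genes did, in either direction) and none separated the groups without overlap (13.3%). Intervals this wide do not show that the groups were alike.

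One mouse decided how many members were called. HFD replicate 1 had the lowest HFD value in 9 members, and its mean deviation from the LFD mean over the 10 members was 0.50, against 1.63 and 1.83 in HFD replicates 2 and 3. Without it the same fit called 7 members in HFD against LFD (Il1a, Il1b, Il33, Il1rn, Il1r2, Nlrp3 and Casp1), among 2812 genes in all, and 8 for both obese groups together, those and Il1r1, among 3326 genes. The difference of Il1rn in HFD was then 2.76 and that of Il33 1.60. The adjusted p of Il1rn in HFD against LFD ranged from 0.0006873 to 0.5038 over all the alternatives tried. Without HFD replicate 3, the HFD difference of Il33 was 0.49 and that of Il18 0.12. No member was called in ob/ob against LFD with any LFD or HFD mouse left out.

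The mice with higher members also differed in tissue markers. HFD replicate 1 had acinar markers at 17.35, inside the LFD range, while HFD replicates 2 and 3 were at 15.25 and 13.32 and ob/ob replicates 1 and 2 at 16.62 and 13.65. Macrophage and monocyte markers (18 of 18 found) were at mean rlog values of 7.78 to 8.21 in LFD mice, 8.50 to 9.43 in HFD mice and 9.23 to 9.98 in ob/ob mice, with 17 and 18 genes above their LFD mean and the log2 of their sum at 13.53 to 13.96, 14.31 to 15.27 and 14.92 to 15.80. Neutrophil markers (11 of 16 found) were at 5.19 to 5.83, 6.34 to 7.37 and 6.42 to 6.59, with 11 and 10 of 11 above their LFD mean and the log2 of their sum at 9.35 to 10.48, 10.77 to 11.82 and 10.33 to 11.42. Fibroblast markers (15 of 15 found) were at 8.26 to 8.63, 8.93 to 9.69 and 9.38 to 10.13. Ductal and tumor epithelium markers (15 of 18 found) were at 9.14 to 9.49, 9.44 to 10.08 and 8.67 to 9.59, highest in HFD replicates 2 and 3. Of these, 11 and 5 had means above LFD, and the log2 of their sum was 15.64 to 15.94, 15.43 to 15.74 and 14.84 to 15.50.

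Of the defining markers, Adgre1, a macrophage receptor, was at 8.15 to 8.75 in LFD mice, 9.30 to 10.12 in HFD mice and 10.15 to 10.60 in ob/ob mice, and S100a8, a neutrophil calcium-binding protein, at 5.69 to 6.21, 7.78 to 9.47 and 7.17 to 7.48. Ly6g, Camp, Ngp, Mpo and Elane, also on the neutrophil list, had no row. With the mean acinar value as a covariate, the difference of both obese groups together from LFD was 1.11 for Il1rn (1.74 without the covariate). It was 1.13 for Il1b (1.55), 0.73 for Il1a (1.55), 1.01 for Il1r2 (1.32), 0.85 for Casp1 (1.22) and 0.29 for Nlrp3 (1.31). Il1r1 hardly moved, at 1.06 (1.12), and Il18, Il33 and Il1rap changed sign. In ob/ob against LFD the covariate left 0.29 of 1.14 for Il1a and 0.58 of 1.23 for Il1rn, and in HFD against LFD it left 1.17 of 1.95 for Il1a. The part that macrophages, neutrophils, fibroblasts or ductal and tumor epithelium had in the members' values was not tested.

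**Figure D3:**
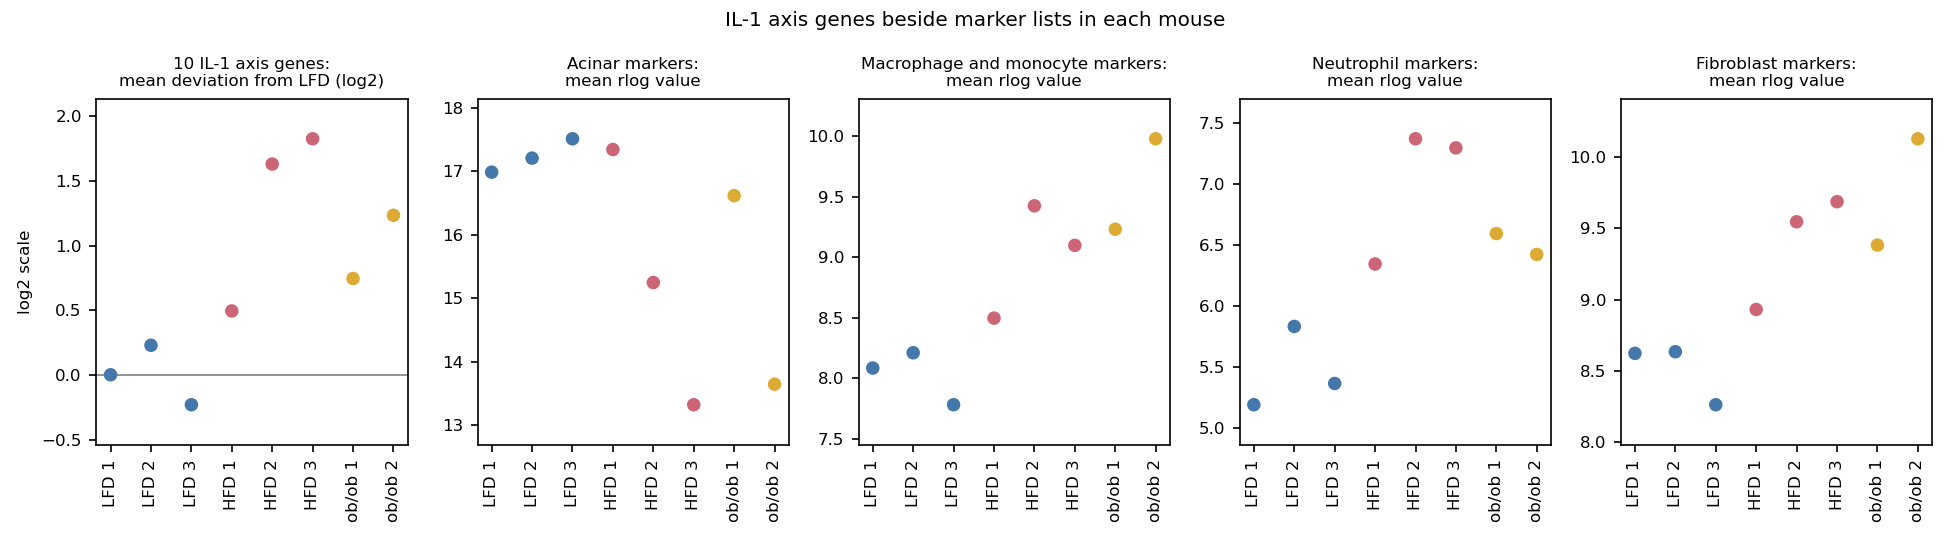
Mean deviation of the 10 IL-1 axis genes from their LFD means (left, log2) and mean rlog value of acinar, macrophage and monocyte, neutrophil and fibroblast markers, with 1 point a mouse colored by group and named on the horizontal axis. HFD replicate 3 has the highest member deviation, 1.83, and the lowest acinar mean, 13.32, and HFD replicate 1 has the lowest member deviation of the obese mice, 0.50, with an acinar mean of 17.35.

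Set against each other within a mouse, Il1rn and Il1a kept nearly the same distance in all libraries, and decoy and signaling receptor did not. Il1rn minus Il1a, the log2 difference in 1 library, was 1.14, 1.58 and 1.43 in LFD mice, 1.86, 1.70 and 1.46 in HFD mice and 1.59 and 1.36 in ob/ob mice. All groups overlapped on this measure. Its spread over the 8 mice was far narrower than that of either gene, both of which covered more than 3 log2 units.

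Il1rn minus Il1b was 0.05, -0.96 and -1.31 in LFD mice, -0.49, -0.52 and -0.33 in HFD mice and -0.88 and -0.45 in ob/ob mice. The LFD mice bracketed the obese ones, with the highest and the lowest values both in LFD. Il1r2 minus Il1r1, decoy against signaling receptor, was -2.45, -2.01 and -1.80 in LFD mice, -2.05, -0.71 and -1.18 in HFD mice and -2.44 and -2.48 in ob/ob mice. HFD replicates 2 and 3 stood above all other mice, HFD replicate 1 was within the LFD range and the ob/ob mice lay at or just under its lower edge. Only the change between mice can be read from these differences, since the genes differ in length.

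**Figure D4:**
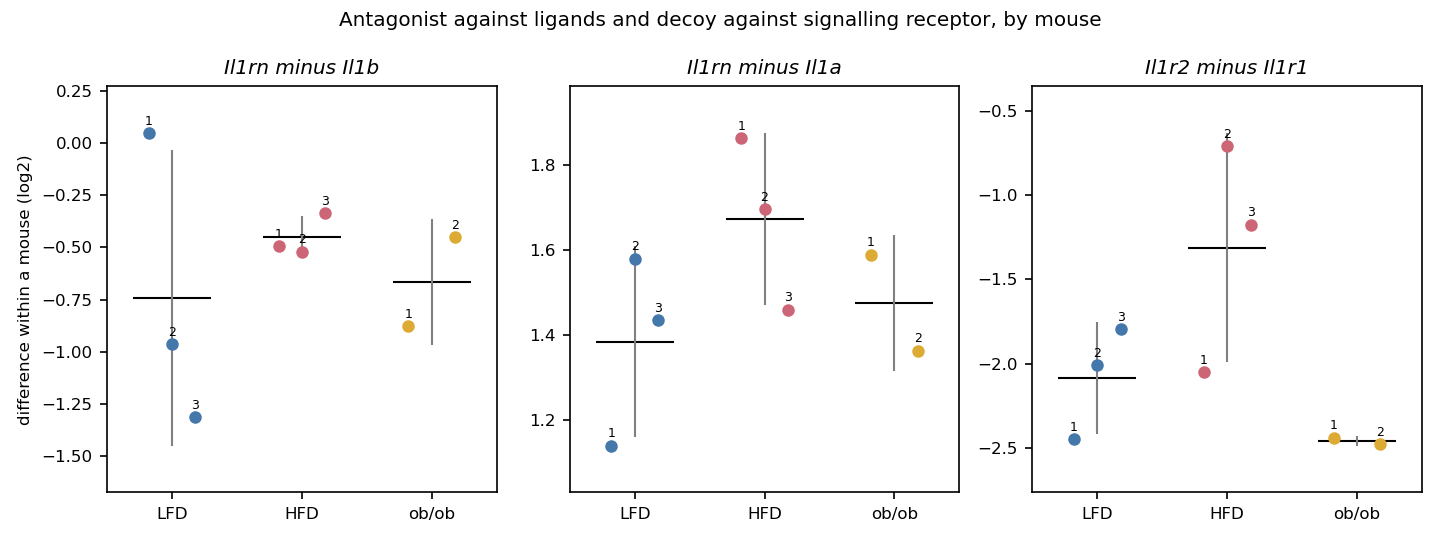
Log2 difference between 2 genes of the same library (vertical axis, a separate range in each panel) for Il1rn minus Il1b, Il1rn minus Il1a and Il1r2 minus Il1r1 in LFD, HFD and ob/ob mice, with 1 numbered point a mouse, a line at the group mean and a bar of 1 SD to each side. Il1rn minus Il1a stays between 1.14 and 1.86 in all 8 mice, and Il1r2 minus Il1r1 is highest in HFD replicates 2 and 3, at -0.71 and -1.18.

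The rest of the pathway was read from listed genes, none of which was called in any comparison. Of 17 symbols of other IL-1 family ligands, receptors and regulators (older symbols included), 7 had a row. The median difference of those 7 was 0.89 in HFD and 0.83 in ob/ob mice, and 4 and 3 of them were higher at an unadjusted p under 0.05, beside 11.5% and 11.6% of all genes. Il1rl1, which encodes the IL-33 receptor ST2, was at 5.06, 4.84 and 4.78 in LFD mice, 7.08, 6.00 and 6.81 in HFD mice and 5.48 and 6.67 in ob/ob mice. Here HFD replicate 1 was the highest of all mice, unlike in its ligand gene Il33, and no obese mouse overlapped LFD. The difference was 1.74 in HFD (SE 0.39, adjusted p = 0.1747) and 1.18 in ob/ob mice (SE 0.43, adjusted p = 0.2277). Il18rap, the accessory chain of the IL-18 receptor, was higher by 1.52 in HFD (SE 0.42) and 1.01 in ob/ob mice (SE 0.47), and Il1rl2, the IL-36 receptor, by 0.89 (SE 0.38) and 1.23 (SE 0.42).

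Of the other inflammasome genes, 23 of 24 symbols had a row, with a median difference of 0.99 in HFD and 0.61 in ob/ob mice. At an unadjusted p under 0.05, 10 had a higher and 1 a lower mean in HFD, where 11.5% of all genes were higher and 8.35% lower, and 9 and 0 did in ob/ob mice, where 11.6% were higher and 7.18% lower. Nlrp1b, a sensor gene of the NLRP1 family, was at 4.49, 4.50 and 4.41 in LFD mice, 5.55, 5.85 and 6.88 in HFD mice and 5.79 and 6.61 in ob/ob mice. Its LFD mice were close together and every obese mouse lay above them, and the difference of both obese groups together was 1.68 (SE 0.35, adjusted p = 0.09176). Mefv, which encodes the sensor pyrin, differed by 1.51 (SE 0.33, adjusted p = 0.09625) and Panx1, a membrane channel gene, by 1.60 (SE 0.54, adjusted p = 0.1377). Nlrp6, an epithelial sensor chosen here after its values were seen, was at 8.35 in HFD replicate 3 and at 2.19 to 3.08 in the other mice.

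The chain that carries the IL-1 signal inside the cell stood close to the table as a whole. All 25 of its listed genes had a row, their median difference was 0.13 in HFD and 0.07 in ob/ob mice, and at an unadjusted p under 0.05 1 was higher and 2 lower in HFD and 1 higher and 1 lower in ob/ob mice, counts at or under the shares of all genes just given. Irak1, the receptor-proximal kinase, was at 10.67, 10.43 and 10.61 in LFD mice, 10.30, 9.39 and 9.10 in HFD mice and 10.16 and 9.40 in ob/ob mice. All obese mice were below all LFD mice, opposite to the IL-1 ligands, and the difference of both obese groups together was -0.88 (SE 0.29, adjusted p = 0.1322). The NF-kB subunit genes Rel and Nfkb2 were higher by 1.01 (SE 0.32, adjusted p = 0.1276) and 0.77 (SE 0.36, adjusted p = 0.2146).

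Genes known to be induced by IL-1 (30 of 32 found) had median differences of 1.01 in HFD and 0.74 in ob/ob mice, with 14 higher and 1 lower in HFD and 8 higher and 1 lower in ob/ob mice at an unadjusted p under 0.05, beside the same shares of 11.5% and 8.35%, and 11.6% and 7.18%, of all genes. Saa3, an acute-phase serum amyloid made in tissue, was at 6.01, 6.43 and 6.19 in LFD mice, 8.16, 9.33 and 8.67 in HFD mice and 8.40 and 8.37 in ob/ob mice. The lowest obese mouse stood well above the highest LFD mouse. It was higher by 2.34 in both obese groups together (SE 0.26, adjusted p = 0.05978), the smallest adjusted p of any gene there and just short of the threshold.

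Has2, a hyaluronan synthase gene, was higher by 1.90 in that comparison (SE 0.56, adjusted p = 0.1184). Ccl7, a monocyte chemokine gene, was higher by 1.73 (SE 0.31, adjusted p = 0.08318) and its difference from LFD was 2.20 in ob/ob and 1.26 in HFD mice, which ob/ob against HFD did not tell apart (0.94, adjusted p = 0.9996). Many of these genes answer to other signals as well, and Lcn2 is also on the neutrophil list. Proteases that act on IL-1 family cytokines outside the inflammasome (6 of 8 found) had median differences of 0.57 and 0.43. Mmp2, a gelatinase gene that fibroblasts express, led them at 1.26 (SE 0.27, adjusted p = 0.09265), and the calpain genes Capn1 and Capn2, whose products cut the IL-1α precursor, were at 0.50 (SE 0.33) and 0.62 (SE 0.30).

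**Figure D5:**
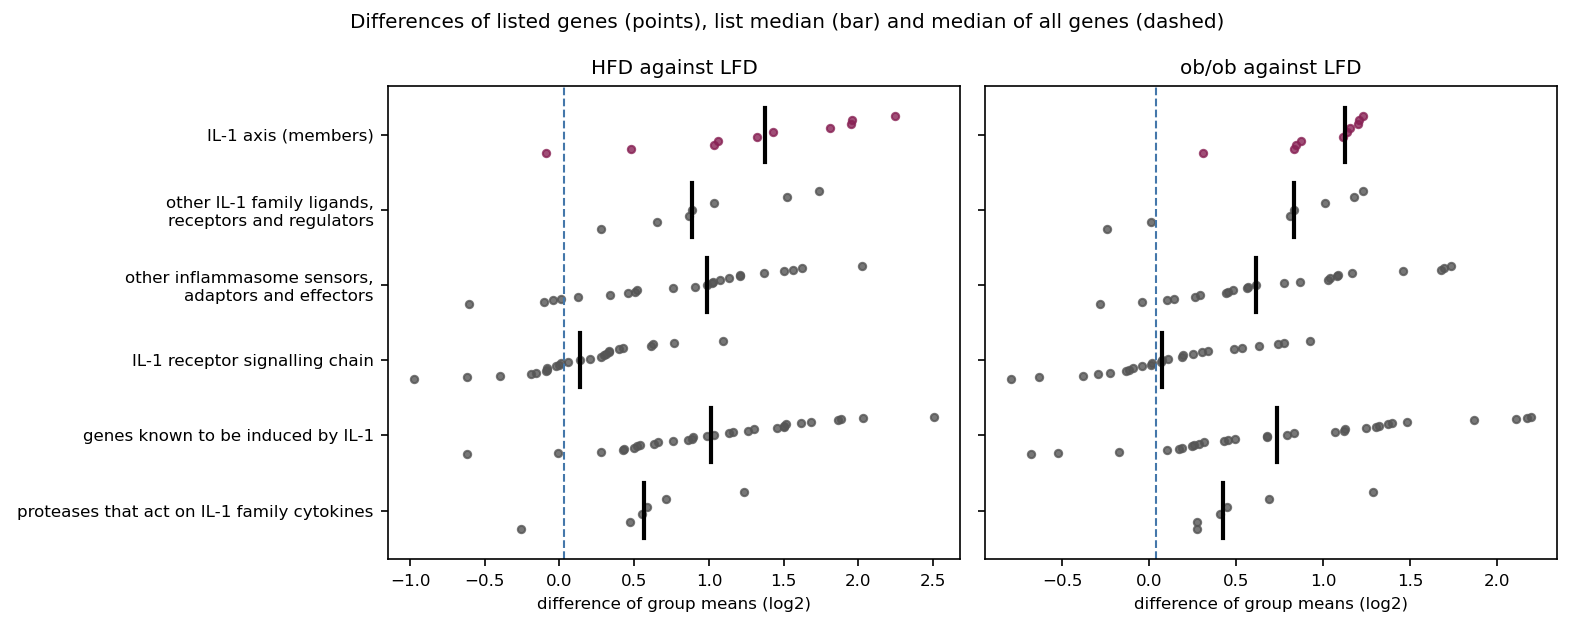
Difference of group means (horizontal axis, log2) of the 10 IL-1 axis genes and of the genes of 5 pathway lists (rows) in HFD against LFD and ob/ob against LFD, with 1 point a gene, a black bar at the list median and a dashed line at the median of all genes. The IL-1 receptor signaling chain has its median at 0.13 and 0.07, near the dashed line, and the genes known to be induced by IL-1 have theirs at 1.01 and 0.74.

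The genes whose pattern over the 8 mice was most like that of each member were looked up by Pearson correlation among the 11833 genes whose rlog values averaged 5 or more. They are a description of mice that share group, library and acinar content. Each r is the highest among 11833 genes over only 8 mice, a choice that favors large values, so its size is not evidence of a link. Il1rn was closest to Il1a (r = 0.983), Hist1h4k and Tec, and Il1a was closest to Tec (r = 0.989), a kinase gene of blood cells, S1pr3 and Csf2rb2. Il1b was closest to Hist1h2be (r = 0.989), Hist1h2ab and AW112010. Casp1 had Mmp9 (r = 0.986) and Hist1h1a among its 3 nearest, and Il1r2 was closest to Mal (r = 0.986), Hist4h4 and Stra6.

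Il1r1 was closest to Serpina3n (r = 0.977), to the contractile gene Tagln and to Rgs4. Nlrp3 was closest to Antxr2 (r = 0.985), Il33 to Sec23a (r = 0.993) and Il18 to Pip5k1c (r = 0.994). Il1rap had the weakest nearest neighbor, Fnta (r = 0.951).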

How the data were processed

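RNA from the pancreas of 8 mice was sequenced. The authors checked reads with FastQC, quantified transcripts with Salmon 0.11.3 against Gencode M18 (GRCm38.p6), summed them to genes with tximport and deposited log2-scale rlog values from DESeq2 1.22.2, 1 table for all mice. Tools and build are from the submitters' processing notes and the study's methods. Their gene filter is not given in the sources used here, and the table holds no counts, so depth is unknown. rlog values draw the differences of weakly counted genes toward 0.

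Mice were grouped by diet or genotype in the labels. Labels give no cage or litter, so p-values measure the spread between these mice. Group means were fitted to all 15047 genes with limma 3.58.1 (R 4.3.3; variance trend on the mean, two-sided, Benjamini-Hochberg over all genes, called under 0.05), after a check on simulated data. Members and lists were chosen with earlier results of these data known. Named pathway genes are up to 3 a list with the largest difference between both obese groups together and LFD, at an rlog average of 5 or more, and named neighbors the 3 highest r, of which 1 gene is not reported here. Promoters are from RefSeq (all 10 members matched). Protein sequences were not used here. Figures were drawn with matplotlib in Python. Alternatives were no trend, only the groups compared, a filter on low values, median centring, quantile normalization, weights per mouse (limma array weights), a replicate block, an acinar covariate and leaving out mice.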

Additional observations from a re-analysis of the deposited data

How the results depend on the processing

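Of 666 member differences recomputed under the alternatives, 614 kept their direction and their side of the threshold, 30 passed it and 22 changed sign. In the limma fit used above, 0 genes were called in each comparison. With only the groups compared in the fit, 1 gene was called in HFD against LFD and 38 in ob/ob against LFD. In the latter, 7 members had an unadjusted p under 0.05, beside 2227 genes higher and 1707 lower among all 15047. With weights per mouse, 8 members among 6656 genes were called in HFD against LFD and 7 among 4286 for both obese groups together. In ob/ob against HFD 4 members had an unadjusted p under 0.05, beside 401 genes higher and 579 lower. Il1rap was at 0.10 in HFD against LFD. These weights favored HFD replicate 2 (9.36) over HFD replicate 1 (0.27), and their estimation stopped before it converged. The filter at a mean rlog value of 5 left Nlrp3 out, so it has no value there. With the acinar covariate, 1 gene was called in ob/ob against LFD, in ob/ob against HFD and for both obese groups together. An unadjusted p under 0.05 was reached by 2 members in ob/ob against HFD, beside 648 genes higher and 541 lower. For both groups together 4 members reached it, beside 1017 genes higher and 675 lower. Il18 was then at -0.30 in HFD, Il33 at -0.17 in ob/ob mice, and Il18, Il33 and Il1rap at -0.13, -0.022 and -0.080 for both groups together. Leaving out HFD replicate 3 and ob/ob replicate 2 left a single ob/ob mouse. Il1rap was then at -0.19 in ob/ob against LFD, -0.17 in ob/ob against HFD and -0.11 for both groups together. The cause of these shifts was not tested.

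Leaving out 1 mouse at a time, genes called ranged from 0 to 2812 in HFD against LFD, 0 to 89 in ob/ob against LFD, 0 to 1 in ob/ob against HFD and 0 to 3326 for both groups together, and members called from 0 to 7 in HFD against LFD and from 0 to 8 for both groups together. Each highest count but that of ob/ob against HFD came without HFD replicate 1. Leaving out an ob/ob mouse leaves a single one, which is assumed to vary like the other groups. Without ob/ob replicate 1, on that assumption, 61 genes were called in ob/ob against LFD and 476 for both groups together. Members with an unadjusted p under 0.05 ranged from 2 to 6 in ob/ob against LFD and 0 to 4 in ob/ob against HFD. For both groups together they ranged from 4 (without LFD replicate 3) to 9. These highest counts came without HFD replicate 1, when 2318 of all genes were higher and 1757 lower in ob/ob against LFD. In ob/ob against HFD 360 were higher and 627 lower then, and for both groups together 3188 and 2636. The lowest count for both groups together stood beside 1270 and 767. Members that did not overlap ranged from 5 to 9 in ob/ob against LFD and 0 to 6 in ob/ob against HFD. The 9 that did not overlap came with ob/ob replicate 2 alone, when 76% of all genes did not overlap in either direction. The 6 in ob/ob against HFD came without HFD replicate 1, when 29.3% did not. The 5 came without LFD replicate 3, when 53.9% did not, and without an HFD mouse, when 45.9% did not. Il1rap ranged from -0.20 to 0.077 in HFD against LFD, from -0.19 to 0.82 in ob/ob against LFD and from -0.14 to 0.36 for both groups together. In ob/ob against HFD the ranges were -0.19 to 0.99 for Il18, -0.76 to 0.35 for Il33, -0.18 to 0.52 for Il1r1, -0.10 to 0.91 for Il1rap, -0.91 to 0.45 for Nlrp3 and -0.44 to 0.024 for Casp1.

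Whether the replicate numbers pair the mice cannot be told from these data. Deviations from the group mean correlated at -0.06, 0.11 and -0.28 between same-numbered LFD and HFD mice. Between same-numbered HFD and ob/ob mice they did so at 0.59 and 0.30, and between LFD and ob/ob mice at -0.10 and 0.13. Differently numbered LFD and HFD mice ranged from -0.27 to 0.33. Differently numbered HFD and ob/ob mice were at -0.59, -0.30, -0.44 and 0.44. Centring 2 ob/ob values on their own mean forces equal deviations of opposite sign. The correlations of a given LFD or HFD mouse with the ob/ob mice therefore differ only in sign. That follows from arithmetic and does not show whether the ob/ob mice themselves are independent. With a replicate block 0 genes were called in each comparison. In HFD against LFD 8 members had an unadjusted p under 0.05, beside 1917 genes higher and 1338 lower. In ob/ob against LFD 4 members did, beside 1882 genes higher and 1361 lower. With 2 ob/ob mice intervals are wide. The table holds no counts, so any limit set by depth is unknown.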
